A study of Mus musculus with 6 samples.

Results

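Cone photoreceptors are the retinal cells of daylight and colour vision, and 570 of the 66018 kept cell barcodes (0.863%) from dissociated mouse ocular cups were taken as cones. They were chosen by measured UMI counts. A kept barcode had at least 500 unique molecular identifiers (UMIs, 1 per captured transcript), at least 300 genes and at most 20% of its UMIs from mitochondrial genes. A cone also had at least 5 UMIs of 8 cone genes (Arr3, Opn1sw, Opn1mw, Gnat2, Pde6h, Pde6c, Gngt2 and Cnga3) with at least 3 of them detected, at most 2 UMIs of the fibroblast gene Dcn and none of the pigment epithelium gene Rpe65. These genes are therefore given as a description only.

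A cone absorbs light with an opsin that activates the cone transducin, of which Gnat2 encodes the alpha subunit. Transducin switches on the cone phosphodiesterase (Pde6c, with its inhibitory subunit Pde6h), the fall in cyclic GMP closes the channel made of Cnga3 and Cngb3, and cone arrestin (Arr3) ends the opsin's activity. Mouse cones make a short-wavelength opsin (S opsin, Opn1sw), a middle-wavelength opsin (M opsin, Opn1mw) or both, with S opsin richest in the ventral and M opsin in the dorsal retina.

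The series asks what ciliary muscle contraction does in the onset of myopia. The tropicamide group, labelled as having a relaxed ciliary muscle, had 6 rounds of drops of this muscarinic antagonist 10 min apart and then a pause of 1 h. The saline group, labelled as having a contracted ciliary muscle, had saline drops at the same 10 min interval. For saline, neither the number of rounds nor a pause afterwards was given. Each group had 12 mice and 3 pools, and each pool joined the right eyes of 4 mice, so a pool and not a mouse is the unit of every test below and differences between mice within a pool were averaged. Cornea, lens and the iris with the ciliary body were removed, and sclera, choroid and retina were kept. The labels name no strain, age, sex or genotype, and their extraction protocol describes sorted bone cells of another mouse line, which goes against the tissue label. No agent other than tropicamide or saline is named.

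The pools differed in how many cones they gave. Tropicamide pools 1 to 3 held 121, 106 and 110 cones among 9429, 13444 and 12582 kept barcodes, and saline pools 1 to 3 held 97, 33 and 103 cones among 9414, 10414 and 10735. Saline pool 2 stands apart with the fewest cones. Summed over cones, tropicamide pools 1 to 3 gave 663285, 591749 and 641516 UMIs and saline pools 1 to 3 gave 710846, 178539 and 695929 UMIs. The median UMIs per cone were 3662, 4835 and 5430 under tropicamide and 7363, 3871 and 6792 under saline, ranges that overlap (exact permutation test, two-sided, p = 0.3, adjusted p = 0.5 over 3 tests). The pools shared 22 to 64 barcodes per pair, and no barcode was a cone in both pools of a pair.

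The levels of the genes that chose the barcodes are set by the rule and are given as a description. Arr3 was detected in 94.5 to 97.2% of the cones of a pool and in 2.18 to 3.92% of its rods. Opn1mw was detected in 86.0 to 92.5% and Opn1sw in 55.3 to 66.0% of cones. The 8 genes together reached 25194 to 34127 CPM (counts scaled to a fixed total of UMIs per pool) in cones against 25.6 to 78.3 CPM in rods, which the rod rule limits to 1 such UMI per barcode. Outside the rule, the 8 amacrine genes summed to 24.9 to 65.9 CPM in cones, with Gad2 and Slc32a1 at 0 in all 6 pools. The 8 pigment epithelium genes summed to 16.8 to 382 CPM, with Best1 at 0, and Rpe65 at 0 by the rule.

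Some barcodes that met the rule held few transcripts of cone genes for their depth. In 83 of the 570 (14.6%) the 8 cone genes made up less than 1% of the UMIs, namely 28, 11 and 10 barcodes of tropicamide pools 1 to 3 and 12, 1 and 21 of saline pools 1 to 3. The other 487 are called the cone-rich set here, a set chosen after its values were seen. The 8 surface epithelium genes, among them the corneal keratin Krt12, summed to 22.4 to 3890 CPM over all cones and to 18.5 to 107 CPM in the cone-rich set. The 8 endothelial genes summed to 12.7 to 1432 CPM and to 13.4 to 114 CPM in the same order, and the 8 cone bipolar genes to 101 to 554 CPM and to 30.8 to 80.5 CPM. The rod bipolar list kept a level of 162 to 904 CPM in the cone-rich set. Just inside the rule, with 5 UMIs of the cone genes or 3 of them detected, lay 21, 7 and 6 barcodes of tropicamide pools 1 to 3 and 5, 1 and 7 of saline pools 1 to 3. Just outside, 1 UMI or 1 gene short, lay 17, 11 and 15 and then 15, 2 and 27 barcodes.

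The share of cones did not separate the treatments. Cones made up 1.28%, 0.788% and 0.874% of kept barcodes under tropicamide (mean 0.982% ± 0.264, SD, n = 3) and 1.03%, 0.317% and 0.959% under saline (0.769% ± 0.393, SD, n = 3). The 95% exact (Clopper-Pearson) interval was 0.218 to 0.445% in saline pool 2 and 1.07 to 1.53% in tropicamide pool 1, and such intervals cover counting error only. The log2 odds of being a cone were 0.50 higher under tropicamide (exact permutation test, two-sided, p = 0.6, where 3 pools against 3 cannot give less than 0.1). Without saline pool 2 the difference was −0.05, so its direction rests on that pool. Among cones and rods alone the cones made up 1.42% ± 0.462 under tropicamide and 1.00% ± 0.547 under saline (SD, n = 3 each), a log2 odds difference of 0.68 (exact permutation p = 0.6). These are shares of captured barcodes, and a loss of cells on the way cannot be told apart from a change in the tissue.

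**Figure D1:**
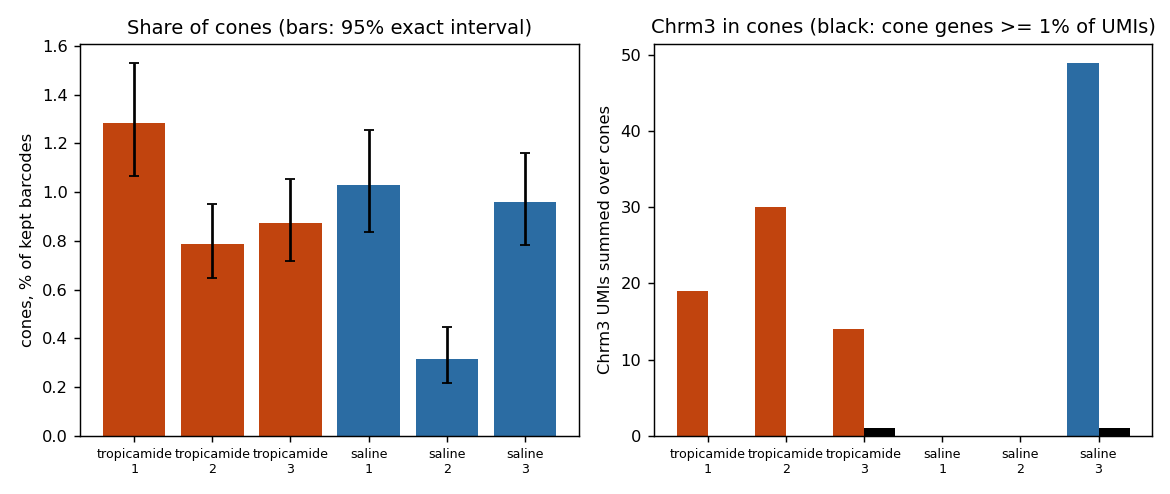
Left, cones as a percentage of kept barcodes in each pool, with bars from 0 and 95% exact intervals. Right, UMIs of the muscarinic receptor gene Chrm3 summed over all cones of a pool (coloured) and over the cone-rich set (black). Saline pool 2 has the lowest share, 0.317%, and the Chrm3 UMIs are nearly absent from the cone-rich set, with 2 in all pools.

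Over all cones, 296 (51.9%) held UMIs of both opsins, 211 held only Opn1mw, 49 only Opn1sw and 14 neither. Depth moved the share with both: in the 543 cones with at least 1000 UMIs, each thinned to 1000 UMIs, it was 43.8%. By pool the thinned share was 41.4%, 39.6% and 49.5% under tropicamide and 50%, 45.5% and 38.4% under saline, so the groups overlap. Opsin UMIs also appeared in barcodes that should lack them, which gives a background. In barcodes with more than 2 Dcn UMIs, which are far deeper (median 10498 to 12393 UMIs by pool), Opn1sw was seen in 4.60 to 11.4%, Opn1mw in 1.38 to 9.16% and both in 0.460 to 1.83%. The share of cones with both opsins was higher than in those barcodes in every pool, but both opsins are among the genes that chose the cones, so this is a description. A cone rich in either opsin needs only a stray UMI of the other to count as holding both. The background of each opsin alone is therefore the closer comparison.

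The mix of opsins within a cone was uneven. Among the 496 cones with at least 5 opsin UMIs, Opn1sw made up less than 5% of the opsin UMIs in 208 (41.9%) and at least 95% in 41 (8.27%). Another 100 cones lay between 80 and 95%, and 73 between 60 and 80%. The ranges from 5 to 20%, 20 to 40% and 40 to 60% held only 23, 23 and 28 cones. Cones with mostly M opsin thus had little S opsin, whereas most cones with mostly S opsin kept some M opsin.

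**Figure D2:**
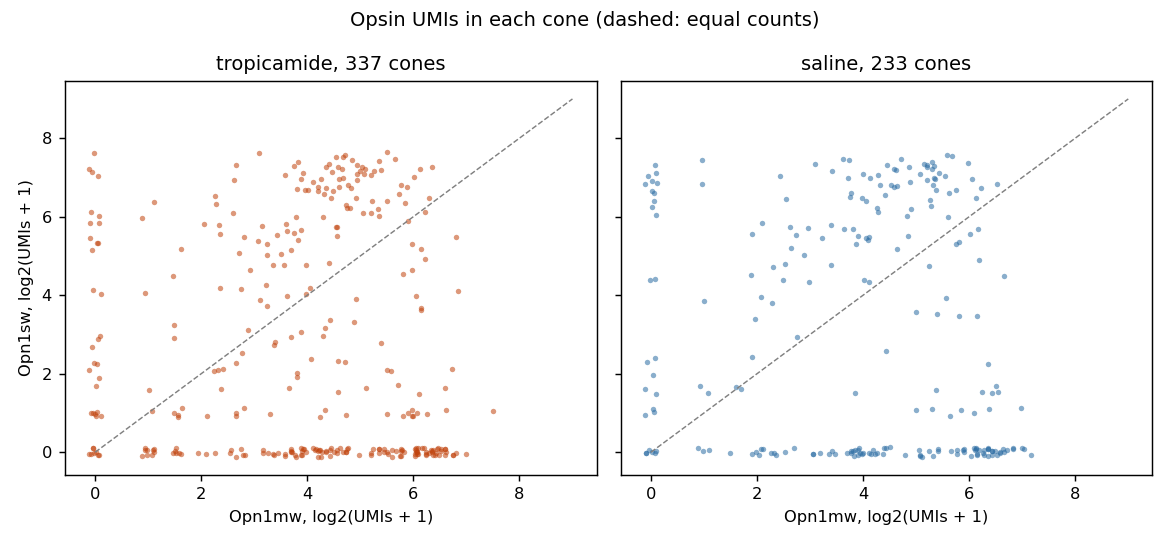
Opn1sw against Opn1mw UMIs in each cone, as log2(UMIs + 1) with a small random shift to separate points, for the 337 tropicamide cones and the 233 saline cones. In both panels a dense row at 0 Opn1sw holds the cones with M opsin alone, and a cloud above the dashed line of equal counts holds cones with more S than M opsin.

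The promoters of both opsin genes are shown because the opsins divide the cones, and that of Nr2f2, a nuclear receptor gene of the dorsal retina, because it is the transcription factor gene with the widest difference between the divided cones. Each line gives the 250 bases before the annotated start, 5′ to 3′ along the gene, from RefSeq's GRCm38.p6 table, a build older than that of the counts. The window of Opn1sw is chr6:29380514-29380763 (minus strand), that of Opn1mw chrX:74127216-74127465 (plus strand) and that of Nr2f2 chr7:70366747-70366996 (minus strand). Capitals mark the letters TAATCC, the core bound by CRX and OTX factors, and AGGTCA, the half-site of retinoid and thyroid hormone receptors, each searched on both strands (as GGATTA and TGACCT when reversed).
Opn1sw: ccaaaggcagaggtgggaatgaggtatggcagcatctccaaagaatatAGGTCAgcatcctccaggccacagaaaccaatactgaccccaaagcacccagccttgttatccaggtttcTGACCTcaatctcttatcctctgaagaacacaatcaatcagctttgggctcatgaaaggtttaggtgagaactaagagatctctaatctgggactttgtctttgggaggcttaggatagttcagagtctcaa
Opn1mw: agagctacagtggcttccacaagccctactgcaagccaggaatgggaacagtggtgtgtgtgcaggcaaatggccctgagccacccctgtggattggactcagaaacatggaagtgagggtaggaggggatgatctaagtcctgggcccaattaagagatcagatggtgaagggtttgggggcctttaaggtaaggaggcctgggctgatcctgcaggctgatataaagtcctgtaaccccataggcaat
Nr2f2: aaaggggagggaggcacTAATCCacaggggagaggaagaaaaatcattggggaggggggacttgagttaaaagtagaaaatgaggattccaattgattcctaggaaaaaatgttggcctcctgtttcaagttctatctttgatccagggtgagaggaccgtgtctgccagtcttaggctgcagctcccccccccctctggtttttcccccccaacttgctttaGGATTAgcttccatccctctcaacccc
The Opn1sw window holds the half-site letters 202 and 132 bases before the start and no TAATCC. The Opn1mw window holds neither motif. The Nr2f2 window holds the TAATCC core 233 and 27 bases before the start. Of 32817 promoter windows of the same length, 6.25% hold TAATCC and 14.0% hold AGGTCA on either strand, and no motif overlapped another in these windows.

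Dividing the cones by opsin gave 250 S-rich cones (more Opn1sw than Opn1mw UMIs) and 302 M-rich cones, and 18 cones with equal counts or no opsin stayed out. Of the divided cones, 36.0%, 41.9% and 49.5% were S-rich under tropicamide and 52.6%, 53.1% and 45.4% under saline. The groups overlap, with tropicamide pool 3 above saline pool 3. Both classes came from every pool, so they were compared within pools on summed counts, and the values that follow are CPM after TMM scaling.

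Of the 5701 genes tested outside the rule, 31 were higher in S-rich cones (0.544% of all tested) and 35 higher in M-rich cones (0.614%; edgeR quasi-likelihood test with the pool as a block, Benjamini-Hochberg adjusted p under 0.05). By definition of the classes, Opn1sw ran from 11941 to 18981 CPM in S-rich and from 156 to 923 CPM in M-rich cones. Opn1mw ran from 2418 to 4097 CPM in S-rich and from 7285 to 10745 CPM in M-rich cones. The other 6 genes of the rule are a description too, and of these Arr3 stood out, with 3476 to 4626 CPM in S-rich and 5695 to 8025 CPM in M-rich cones, 2 ranges that do not overlap. Gnat2, Pde6h, Pde6c, Gngt2 and Cnga3 had log2 differences from −0.13 to 0.18.

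Ccdc136 was the most abundant gene that was higher in every pool of S-rich cones by over 2 log2 units, among the genes that passed. Its lowest, median and highest values over the 6 pools were 1328, 1694 and 1715 CPM in S-rich cones and 177, 288 and 334 CPM in M-rich cones. The pools did not overlap, and the log2 difference was 2.56 ± 0.13 (SE; edgeR adjusted p = 1.81e-12). In the annotation Ccdc136 is the next gene to Opn1sw on one side and Calu on the other, and both are read from the opposite strand. Calu, which encodes a calcium-binding protein of the secretory pathway, was also higher in S-rich cones (79.3 to 167 CPM against 47.8 to 92.0 CPM, overlapping; log2 difference 1.01 ± 0.20, edgeR adjusted p = 0.00472). Of the 66 genes that passed, 63 were found in the annotation table, and 8 have another such gene or an opsin gene as the next gene on either side. Calu and Ccdc136 are among the 8 only through Opn1sw, which divides the cones. The rest are pairs of neighbours counted from both sides. The same count was not made over all genes tested, so these 8 do not show that such genes cluster. This look at neighbours was made after the values were seen.

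Vax2 and Nr2f2, transcription factor genes of the ventral and the dorsal retina, lay on opposite sides. Vax2 had 56.1, 67.9 and 76.2 CPM in the S-rich cones of the tropicamide pools and 59.0, 66.1 and 72.8 CPM in those of the saline pools, against 13.8, 10.2 and 20.7 CPM and then 18.4, 0 and 17.7 CPM in the M-rich cones. Every S-rich value was above every M-rich value (log2 difference 2.08 ± 0.31, SE, edgeR adjusted p = 0.00021). Nr2f2 had 9.35, 31.7 and 17.3 CPM and then 0, 0 and 15.3 CPM in S-rich cones, against 80.1, 112 and 121 CPM and then 84.6, 88.7 and 133 CPM in M-rich cones. Every M-rich value was higher (−2.99 ± 0.34, adjusted p = 3.91e-06). Positions in the retina were lost when the tissue was dissociated.

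Other named genes were higher in S-rich cones too, and no shared role among them was tested. Syndig1l, a relative of a synapse differentiation gene, had lowest, median and highest values of 163, 216 and 257 CPM in S-rich and 5.90, 26.7 and 52.5 CPM in M-rich cones, with no overlap (log2 difference 2.89 ± 0.24, edgeR adjusted p = 3.11e-08). Cacna1h, a T-type calcium channel subunit, had 46.8, 72.4 and 113 CPM against 3.68, 20 and 29.6 CPM, again apart (2.13 ± 0.31, adjusted p = 0.000187). Kcne2, a potassium channel subunit, was 0.92 log2 units higher, and Tenm3, a teneurin adhesion protein, 1.70 higher. Socs3, a feedback inhibitor of cytokine signalling, was 1.48 higher. Cabp5, a calcium-binding protein also used here as a cone bipolar marker, was 1.48 higher, and it was the only one of the 8 cone bipolar genes that could be tested. All 5 rod bipolar genes that could be tested were above 0 in S-rich cones (median 0.81), with 0 passing. In the cone-rich set 2 of 3 tested rod bipolar genes were above 0 (median 0.06), and 1 passed as higher in S-rich cones. The only cone bipolar gene tested there was 3.25 higher and passed. The part of bipolar transcripts in these differences was not tested.

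Among M-rich genes, Smug1, a DNA glycosylase, had 26.8, 41.1 and 88.9 CPM in S-rich and 188, 260 and 369 CPM in M-rich cones (lowest, median and highest), without overlap (log2 difference −2.44 ± 0.22, edgeR adjusted p = 8.53e-08). Kif4, a kinesin, had 61.8, 175 and 253 CPM against 195, 588 and 828 CPM, ranges that overlap between pools although M-rich cones were higher within each (−1.54 ± 0.16, adjusted p = 6.84e-07). The cadherin gene Cdh12 was at 0 in the S-rich cones of 3 pools and at 141 to 340 CPM in M-rich cones (−2.76 ± 0.32, adjusted p = 3.91e-06). Grip1, a scaffold of glutamate receptors, differed by −1.27, and Epha5, an ephrin receptor that guides axons, by −1.87.

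Of 23 photoreceptor transcription factor genes tested, 3 were higher in M-rich cones and none in S-rich cones: Nr2f2, Samd7 and Thrb. Samd7, a repressor that binds with CRX, had 106, 173 and 287 CPM in S-rich and 325, 429 and 633 CPM in M-rich cones (lowest, median and highest), without overlap (−1.29 ± 0.15, edgeR adjusted p = 4.04e-06). Thrb, the thyroid hormone receptor needed for M opsin, had 797, 942 and 1401 CPM against 1117, 1318 and 1847 CPM, with overlap between pools (−0.44 ± 0.09, adjusted p = 0.00952). Rxrg, its retinoid partner, went the other way in size without passing (0.59 ± 0.21, adjusted p = 0.278). Crx differed by 0.05 ± 0.10 (adjusted p = 0.944).

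Of 20 light response genes outside the rule, 2 were higher in S-rich cones, Guca1a and Sag. Guca1a, the calcium sensor of guanylate cyclase, differed by 0.49 ± 0.08 (edgeR adjusted p = 0.000492) and Sag, the rod-type arrestin, by 0.37 ± 0.08 (adjusted p = 0.00772). None of the 56 cytosolic ribosomal genes, 26 outer segment genes or 24 photoreceptor synapse genes passed, and 1 of 57 nuclear respiratory chain genes did, Cox8a (0.35 ± 0.09, edgeR adjusted p = 0.0378). Of all genes tested, 0.544% were higher in S-rich and 0.614% in M-rich cones. In lists of this size 0 or 1 call lies near that share. The median over all tested genes was 0.00.

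**Figure D3:**
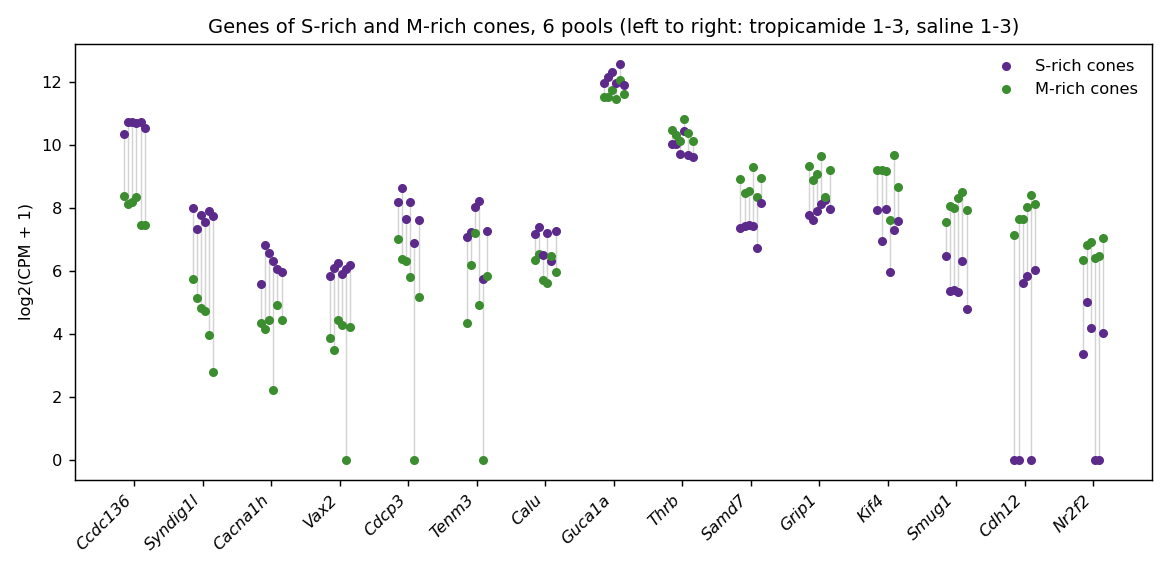
Values of 15 genes as log2(CPM + 1) in the S-rich (purple) and M-rich (green) cones of each pool, joined by a line, with tropicamide pools 1 to 3 and then saline pools 1 to 3 from left to right. Ccdc136, Syndig1l, Cacna1h and Vax2 lie higher in S-rich cones in every pool, and Samd7, Grip1, Smug1, Cdh12 and Nr2f2 higher in M-rich cones in every pool.

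The leading genes kept their direction within each treatment. Ccdc136 differed by 2.37 ± 0.18 in the tropicamide pools and by 2.79 ± 0.17 in the saline pools, and Kif4 by −1.54 ± 0.22 and −1.55 ± 0.22. Nr2f2 differed by −2.44 ± 0.37 and −4.04 ± 0.57, and Syndig1l by 2.47 ± 0.25 and 3.73 ± 0.39 (SE). Whether these differences depend on treatment was not tested. In the cone-rich set 115 genes passed, among them all 66 with the same sign. That set is a part of the same cones, so the agreement adds no independent support.

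Rods of the same pools were the nearest comparison. There were 48478 rods. They had at least 5 UMIs of a list of rod marker genes with at least 3 detected, and at most 1 UMI of the cone genes. The limits on Dcn and Rpe65 were those used for cones. At most 1 marker was detected of each of the bipolar, Müller glia, amacrine, endothelial, melanocyte, surface epithelium and macrophage lists. The pigment epithelium, fibroblast and erythrocyte lists were not limited in rods apart from Dcn and Rpe65. The genes of either rule are left out of the counts. Cones held far more mitochondrial RNA than rods, with a median share by pool of 3.78 to 7.19% of UMIs against 0.17 to 0.36%, so rods matched to cones in UMIs and in mitochondrial share were used as well. For 192 of the 570 cones no such rod was found, and the comparison with doubly matched rods was made both with all cones and without these 192. Of 14380 genes, 3444 were higher in cones (23.9%) and 3685 lower (25.6%; edgeR with the pool as a block). With rods matched in UMIs 3891 of 7985 passed, and with rods matched in both 2314 of 6140, or 2153 of 5661 without the unmatched cones. Of 2167 genes that passed in both the full and the doubly matched comparison, 2115 had the same sign.

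The cone forms of the light response genes set the cells apart. Gnb3, the cone transducin beta subunit, had 2825, 3117 and 3593 CPM in cones and 179, 221 and 252 CPM in rods (lowest, median and highest), and Gnb1, its rod counterpart, had 564, 649 and 862 CPM against 5147, 5373 and 5496 CPM. Neither overlapped, and the log2 differences were 3.86 ± 0.10 (adjusted p = 3.57e-17) and −2.96 ± 0.11 (adjusted p = 3.36e-14, edgeR). Cngb3, the second channel subunit, had 1216 to 2568 CPM in cones and 1.57 to 4.76 CPM in rods, and the cone calcium exchanger Slc24a2 had 467 to 733 CPM against 0.671 to 3.41 CPM. The rod counterparts ran the other way, Cngb1 by −2.70 and Slc24a1 by −2.62. The cyclase gene Gucy2f differed by −3.01 and its activator Guca1b by −2.41, while Guca1a was 0.80 higher in cones. In all, 6 of 20 such genes were higher and 11 lower in cones, beside 23.9% and 25.6% of all genes tested. Their median was −0.64, beside −0.11 over all genes tested.

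Cones also stood out for genes with no part in the light response. Cdh18, a cadherin, had 3137, 3777 and 4913 CPM in cones and 2.37, 5.49 and 8.53 CPM in rods (lowest, median and highest; log2 difference 9.50 ± 0.20, edgeR adjusted p = 2.27e-18). Nptx1, a secreted pentraxin that gathers glutamate receptors, had 161 to 216 CPM against 0.051 to 0.497 CPM (9.64 ± 0.20). Adrb1, the beta-1 adrenergic receptor, had 241 to 357 CPM against 0.537 to 0.853 CPM (8.77 ± 0.13). None of these overlapped between the cell types. Otop3, Fzd10, Ppm1j, Pgc and Klhl4 had differences between 8.67 and 9.56.

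Of 24 photoreceptor transcription factor genes, 11 were higher in cones and 10 lower (median log2 difference 0.15), beside 23.9% and 25.6% of all genes tested. Sall3 (8.59), Rxrg (7.81) and Lhx4 (6.54) were higher, as was Thrb by 0.45 ± 0.09 (edgeR adjusted p = 0.000437). Thrb had 855 to 1513 CPM in cones and 717 to 849 CPM in rods, just without overlap, counted over the whole gene and not by isoform. Esrrb, which supports rods, was lower by 2.82 ± 0.12, and Samd11 lower by 2.66 ± 0.11. Crx and Otx2, which both cell types need, were lower in cones by 0.39 ± 0.08 and 0.76 ± 0.12, and Crx did not pass with doubly matched rods (−0.25, adjusted p = 0.0583).

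At the synapse 10 of 25 genes were higher in cones and 9 lower (median −0.07), again beside 23.9% and 25.6% of all genes tested. Cplx3, a complexin that tunes release, had 481, 589 and 678 CPM in cones and 20.7, 22.1 and 25.9 CPM in rods (4.65 ± 0.09, edgeR adjusted p = 7.7e-19), while Cplx4 differed by −0.96. Elfn2, an adhesion protein, was 7.89 higher, and the glutamate transporter gene Slc17a7 0.83 higher. In the outer segment 5 of 28 genes were higher and 16 lower, with the disc proteins Prph2 and Rom1 at −1.24 and −1.16 and the axoneme gene Rp1 at −1.95. Cdhr1, a cadherin at the base of the outer segment, was 1.30 higher. In the visual cycle Rbp3, which carries retinoids between cells, was 1.61 higher and the retinol dehydrogenase Rdh12 was 1.16 lower.

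Genes of energy supply were higher in cones, though by a size that moved with the mitochondrial share. Of 57 nuclear respiratory chain genes, 50 were higher and 3 lower (median log2 difference 1.07), and with doubly matched rods 37 and 2 (median 0.51), or 43 and 2 without the unmatched cones (median 0.57). Ckb, the brain-type creatine kinase, had 2047, 2395 and 3083 CPM in cones against 294, 337 and 395 CPM in rods (2.84 ± 0.09, edgeR adjusted p = 3.04e-15). Of 56 ribosomal genes 55 were higher against all rods (median 0.79), but 0 were higher and 20 lower against doubly matched rods (median −0.26), or 29 lower without the unmatched cones (median −0.32). Immediate early genes went from 16 of 23 higher (median 1.00) to 3 higher and 3 lower of 17 (median −0.40), or 3 higher and 8 lower of 13 without the unmatched cones (median −0.65). Fos went from 0.77 to −0.40, or −0.68 without the unmatched cones. The direction of the ribosomal and immediate early medians thus depended on which rods were used. Over all genes tested, 23.9% were higher and 25.6% lower against all rods. Against doubly matched rods 1233 of 6140 genes were higher and 1081 lower, or 1151 and 1002 of 5661 without the unmatched cones. The immediate early counts of 3 higher and 3 lower of 17 lie near those shares.

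**Figure D4:**
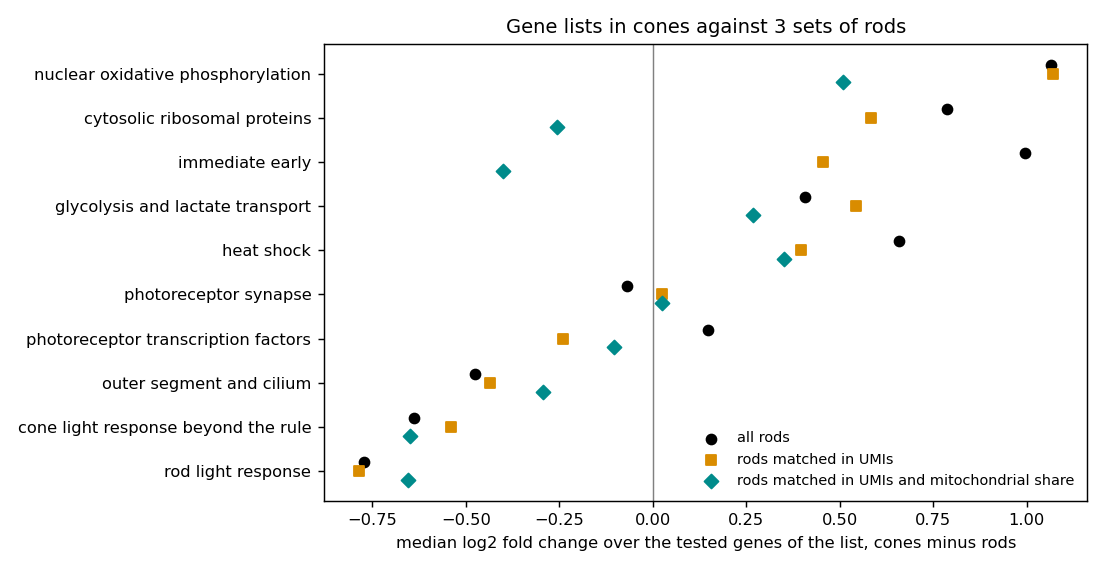
Median log2 difference between cones and rods over the tested genes of 10 gene lists, against all rods (circles), rods matched in UMIs (squares) and rods matched in UMIs and mitochondrial share (diamonds). The respiratory chain list stays above 0 in all 3, and the ribosomal and immediate early lists pass from above 0 to below 0 with the doubly matched rods.

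The comparison of tropicamide with saline in cones gave no called gene. Of 8478 genes tested outside the rule, 0 were higher (0%) and 0 lower (0%) by edgeR at an adjusted p under 0.05, 388 (4.58%) had an unadjusted p under 0.05, and 839 (9.9%) had groups that did not overlap. DESeq2 called 5 genes, all lower under tropicamide: Adgrb3, Auts2, Lin7a, Mdga2 and Nyap2. The median standard error was 0.27 log2 units in cones, against 0.10 in the rods of the same pools. In simulated counts with the UMI totals of these pools 100% of genes changed 4-fold, 52.2% of those changed 2-fold and 4.48% of those changed 1.5-fold were recovered. The simulation gave all genes 1 common dispersion, unlike the measured counts. Changed genes were only raised under tropicamide and were taken from genes above a minimum summed count. In the measured counts of all cones, the pigment epithelium gene Ttr differed by 2.52 ± 0.58 log2 units without passing (edgeR adjusted p = 0.616). Recovery of changes in the measured counts was not tested. Rods gave 693 higher genes (4.16%) and 641 lower genes (3.85%) of 16642, a total of 1334 that fell to 156 without tropicamide pool 2 and rose to 2122 without saline pool 3. Markers of other cells differed in the same rods. The 5 erythrocyte genes, which include the haemoglobins, summed to 1430 to 4150 CPM under tropicamide and 12.1 to 27.9 CPM under saline, with 4 of 5 called higher, and 3 of 7 fibroblast genes were called higher (sums 361 to 535 and 177 to 359 CPM). Their part in the rod results was not tested. The labels call the pools separate samples, and p-values measure the spread between pools.

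No gene of the light response passed between treatments in cones. As a description, Opn1sw had 4806, 5917 and 8114 CPM under tropicamide and 7292, 8802 and 4647 CPM under saline, and Opn1mw 5169, 5381 and 5316 CPM and 4720, 6180 and 4545 CPM. Arr3 had 5026, 5356 and 5145 CPM and 4144, 5322 and 4271 CPM. All 3 overlap between groups. Of the 20 light response genes outside the rule 0 passed, with a median log2 difference of 0.02 and a range from −0.22 to 0.50, beside 0.00 over all genes tested.

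Gnb3 had 2857, 2886 and 3384 CPM under tropicamide and 3206, 3856 and 2916 CPM under saline, with overlapping groups (−0.12 ± 0.16, 95% interval −0.43 to 0.19, edgeR adjusted p = 1.00). Cngb3 had 1654, 1933 and 1605 CPM and 2486, 1305 and 1396 CPM, where the highest and the lowest pool are both saline (−0.01 ± 0.22, interval −0.45 to 0.43). Thrb differed by −0.04 ± 0.20, Crx by −0.07 ± 0.14, Rxrg by −0.18 ± 0.23 and Otx2 by −0.29 ± 0.23. Of 57 respiratory chain genes 23 were above 0 (median −0.03), and of 26 outer segment genes 18 were above 0 (median 0.03), with 0 passing in either list.

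Genes examined for their part in growth and stress signals were read in the same way. Yars, a tyrosyl-tRNA synthetase, had 40.9, 48.6 and 41.9 CPM under tropicamide and 70.1, 53.6 and 65.9 CPM under saline. The cone groups did not overlap, though the test did not pass (−0.58 ± 0.22), and in rods Yars fell (−0.95, edgeR adjusted p = 0.000316). Fkbp5, a target of the glucocorticoid receptor, had 110, 88.2 and 54.7 CPM and 30.7, 35.8 and 80.6 CPM, overlapping. The immediate early gene Fos had 847, 961 and 436 CPM and 599, 250 and 620 CPM, overlapping as well.

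The genes with the smallest p in cones lay mostly lower under tropicamide. Nap1l5, a nucleosome assembly protein family member, had 28.3, 30.6 and 29.0 CPM under tropicamide and 71.6, 77.5 and 70.3 CPM under saline. Nyap2, an adaptor of the phosphoinositide 3-kinase path, had 33.0, 27.0 and 46.7 CPM and 83.3, 101 and 144 CPM. Neither overlapped between groups, but neither passed (log2 differences −1.30 ± 0.22 and −1.63 ± 0.28, edgeR adjusted p = 0.326 for both). In rods the 2 genes had 2.47 to 4.69 CPM and 0.791 to 3.73 CPM. Plcl1, Prox1, Sybu, Mdga2 and Kcnb2 had values of −0.97, −1.45, −1.94, −1.08 and −2.82 (adjusted p = 0.616 each).

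Some of these genes are markers of bipolar cells. Trpm1, the channel of ON bipolar cells, had 1.57, 10.8 and 66.0 CPM under tropicamide and 219, 417 and 95.2 CPM under saline in cones, and Pcp2, a rod bipolar gene, 7.87, 7.20 and 16.1 CPM and 73.0, 0 and 101 CPM. The 8 rod bipolar genes summed in cones to 164 to 405 CPM under tropicamide and 585 to 992 CPM under saline, with none of the 8 at 0 over all cones. In the cone-rich set the sums were 162 to 229 CPM and 213 to 904 CPM. The part of bipolar transcripts in the values of the genes named above was not tested.

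In the cone-rich set 10 of 7545 genes passed, 2 higher and 8 lower under tropicamide. Ttr, a thyroid hormone and retinol carrier made by the pigment epithelium, had 62.4, 190 and 150 CPM under tropicamide and 29.7, 20 and 35.4 CPM under saline, without overlap (2.11 ± 0.31, edgeR adjusted p = 0.000637). Ptgds, a prostaglandin D synthase and secreted carrier, had 86.5, 160 and 125 CPM and 54.7, 0 and 20.5 CPM, also apart (1.86 ± 0.32, adjusted p = 0.00281). Both genes rose in rods by like amounts, 2.40 ± 0.31 and 2.20 ± 0.25. The 8 pigment epithelium genes summed in rods to 144 to 286 CPM under tropicamide and 39.4 to 76.1 CPM under saline, and in all other kept barcodes to 3675 to 10180 CPM and 1798 to 2390 CPM. In the cone-rich set itself they summed to 104 to 217 CPM under tropicamide and 18.5 to 74.5 CPM under saline, Ttr being 1 of the 8. Erythrocyte genes summed there to 48.1 to 150 CPM and 9.03 to 18.5 CPM, and fibroblast genes to 262 to 443 CPM and 136 to 253 CPM, so these 3 lists did not overlap between the groups. The part of RNA from other cells in the rise was not tested.

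Among the 8 lower genes was Mef2c, a transcription factor of photoreceptors, with 177, 128 and 165 CPM under tropicamide and 283, 247 and 267 CPM under saline (−0.78 ± 0.16, edgeR adjusted p = 0.0334). Its groups did not overlap, while in rods it differed by −0.11 ± 0.05 (adjusted p = 0.197). Rock2, a kinase of the cytoskeleton, had 101, 162 and 143 CPM and 265, 314 and 192 CPM (−0.86 ± 0.19, adjusted p = 0.0476). Prkca, itself a rod bipolar marker, had 88.5, 78.9 and 100 CPM and 511, 133 and 116 CPM (−1.66 ± 0.31, adjusted p = 0.00964). The other 5 were Pcdh9, Prkg1, Nrxn3, Acyp2 and Stk3, with differences from −2.58 to −1.06. None of the 10 passed over all 570 cones.

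Lists of stress and growth genes differed between all cones and the cone-rich set. Over all cones 16 of 18 immediate early genes were above 0 (median log2 difference 0.58), 54 of 56 ribosomal genes (0.25) and 10 of 12 glucocorticoid responsive genes (0.75), with 0 passing in each. In the cone-rich set these counts were 6 of 16 (−0.08), 31 of 56 (0.00) and 4 of 11 (−0.16). The summed level of surface epithelium genes over all cones ran from 37.4 to 3890 CPM under tropicamide and from 22.4 to 211 CPM under saline. That of endothelial genes ran from 20.3 to 1432 CPM and from 12.7 to 251 CPM, and both sums overlap between groups. The part of these transcripts in the list medians was not tested. Egr1, a retinal gene that answers to light and defocus, had 1188, 1282 and 893 CPM under tropicamide and 1265, 757 and 934 CPM under saline in cones (0.17 ± 0.20, edgeR adjusted p = 1.00), and in rods it fell (−0.79 ± 0.19, adjusted p = 0.0331).

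**Figure D5:**
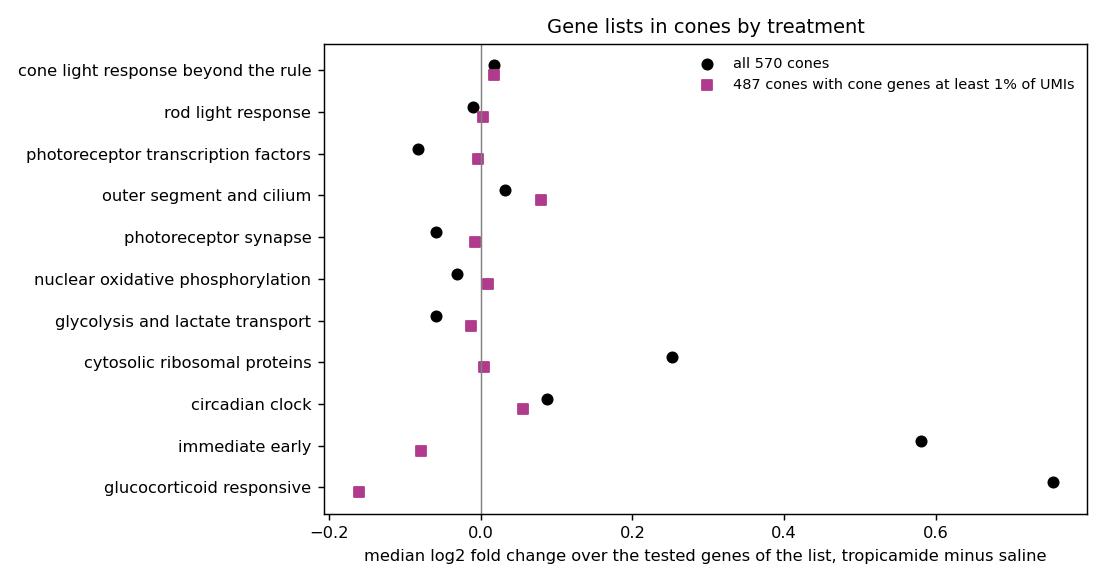
Median log2 difference between tropicamide and saline over the tested genes of 11 lists, over all 570 cones (circles) and over the 487 cones of the cone-rich set (squares). The light response, outer segment, synapse and respiratory chain lists lie near 0 in both, and the ribosomal, immediate early and glucocorticoid lists lie above 0 over all cones and at 0.00, −0.08 and −0.16 in the cone-rich set.

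The change in cones was compared with the change in rods of the same pool. None of 8453 genes passed (0%; limma on within-pool differences of log2 CPM with a prior count of 2), and 454 had an unadjusted p under 0.05. The smallest p belonged to Xkr4, a member of the scramblase family, which had 47.2, 39.6 and 40.2 CPM under tropicamide and 93.5, 113 and 61.5 CPM under saline in cones. Its cone groups did not overlap. In rods it had 3.08, 2.35 and 2.09 CPM and 0.818, 1.12 and 1.20 CPM, in the other direction (difference of changes −2.17 ± 0.29, adjusted p = 0.166). Fmn2, Ralyl, Nyap2 and Car10 followed with −1.22, −1.64, −2.33 and −1.58 (limma adjusted p = 0.38 each). Egr1 had a difference of changes of 0.98 ± 0.25 (adjusted p = 0.79), so its fall in rods was not shown to be absent from cones.

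Tropicamide blocks muscarinic receptors, and their transcripts were scarce in cones. Over 3481864 cone UMIs, Chrm1 and Chrm4 had 0, which allows up to 0.862 CPM (3 UMIs, counting error only), Chrm5 had 1, Chrm2 30 and Chrm3 112. In the cone-rich set Chrm2 had 0 and Chrm3 had 2 UMIs. By pool, Chrm3 had 19, 30 and 14 UMIs under tropicamide and 0, 0 and 49 UMIs under saline, so the highest and the lowest pools were both saline. Of the 112, all but 2 came from barcodes in which the cone genes made up less than 1% of UMIs.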

How the data were processed

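Single-cell RNA-seq was read as UMI counts per gene and barcode for 6 pools. The file headers name Cell Ranger 8.0.1 as the maker of the deposited counts, with STAR and GRCm39 named in the submitters' processing notes. For intron counting, cell calling and annotation release, nothing was given in the sources used. Members and gene lists were chosen with earlier results of these data known.

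UMI counts were summed per pool and cell class. edgeR 4.0.16 (R 4.3.3) tested the sums with TMM scaling, its filter on low counts and a quasi-likelihood fit, with the pool as a block where both classes came from each pool. limma 3.58.1 tested the within-pool difference of cones and rods, and DESeq2 1.42.0 was an alternative. Adjusted p-values are Benjamini-Hochberg over all genes of a fit, with a threshold of 0.05. Standard errors of edgeR log2 differences were worked back from the difference and its F statistic. The 95% intervals of log2 differences use a normal quantile on these errors. They take no account of the few degrees of freedom and so are too narrow. Levels of single genes are CPM after TMM scaling, and summed marker lists are plain CPM. Python 3.11.15 with NumPy 2.4.6, SciPy 1.17.1, scikit-learn 1.9.0, pandas 2.3.3 and matplotlib 3.10.9 did the rest.

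Named genes were those past the threshold, non-overlapping or of one direction in every pool, among the 12 highest and 12 lowest changes, otherwise the 10 of smallest p, up to 4 called or 2 uncalled genes per list, and a set always examined. Calu, Kcne2, Socs3, Guca1a, Gucy2f, Cplx4, Slc17a7, Elfn2 and Rom1 (for the last 6, between cones and rods), the DESeq2 calls and the genes called in the cone-rich set fall outside it and were chosen after their values were seen. Simulated doublets (0.8% per 1000 barcodes) marked 97 cones, removed only as an alternative. The models were tested on simulated data.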

Additional observations from a re-analysis of the deposited data

How the results depend on the processing

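The count of 0 genes by treatment in cones became 5 with DESeq2, 303 without a filter on low counts, 4 with a stricter cone rule, 10 in the cone-rich set (chosen after seeing the data) and 0 to 3 with 1 pool left out, and the cause was not tested. The difference from the change in rods became 1 gene in the cone-rich set and 0 to 3 with 1 pool left out. The 1334 rod genes became 156 to 2122 with 1 pool left out. The 7129 genes between cones and rods became 3891 with rods matched in UMIs, 2314 with rods also matched in mitochondrial share and 2153 with the unmatched cones left out too (both added after seeing the data), where fewer genes were tested. The 66 genes between S-rich and M-rich cones became 180 without the filter and 115 in the cone-rich set. The log2 odds difference of the cone share ran from −0.0509 to 0.80 with 1 pool left out.

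The replicate numbers were not taken to pair the pools, since same-numbered pools correlated at 0.049, −0.095 and −0.185. With the replicate block 1 gene was called by treatment in cones (Kcnb2), 883 in rods and 0 for the difference of changes, and the share difference stayed at 0.50 with an exact permutation p of 0.5.

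Some values near 0 changed sign. By treatment, Cngb3 was 0.011 without the filter, 0.0296 with the stricter rule, 0.0432 without doublets, 0.0464 with the replicate block and 0.0283 in the cone-rich set, and Grk1 was 0.014, 0.0407 and 0.0074 without the filter, with the stricter rule and in the cone-rich set. With 1 pool left out Cngb3 ran from −0.17 to 0.35, Grk1 from −0.0692 to 0.0627, Slc24a2 from −0.0905 to 0.26, Thrb from −0.19 to 0.25 and Chrm3 in cone genes by treatment from −0.46 to 7.23. Against doubly matched rods Fkbp5 was 0.0542, Fos −0.40, Fosb −0.31 and Junb −0.60, or 0.15, −0.68, −0.65 and −0.97 without the unmatched cones, and with 1 pool left out Fkbp5 ran from −0.28 to 0.0338. Between S-rich and M-rich cones Fkbp5 was 0.01 without doublets and ran from −0.16 to 0.11 with 1 pool left out, and Yars from −0.0767 to 0.24. Of the other values of single genes under an alternative, 2296 kept their direction and side of the threshold, 50 lost and 21 gained a call.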
